A study of Mus musculus with 24 samples.

Results

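Hmgn1, Brwd1, Chaf1b, Morc3, Setd4 and Donson on mouse chromosome 16 (Mmu16) and Arid1b on chromosome 17 (Mmu17) encode proteins that bind, read, assemble or remodel chromatin or that act at the replication fork, and all 7 are present in 3 copies in Ts65Dn mice. They were chosen by gene symbol, and each matched 1 of the 55385 genes in the count table. The Ts65Dn line is a mouse model of Down syndrome (DS) that carries an extra minichromosome. This minichromosome joins a segment of Mmu16, homologous to human chromosome 21 (Hsa21), to the centromeric part of Mmu17, which is not. Arid1b therefore lies in the part of the trisomy that DS does not share. The hippocampus (HIP) and entorhinal cortex (EC) of 6 Ts65Dn males and 6 male wild-type (wt) littermates, 5 to 6 months old and on the F1 B6C3B background, were sequenced in bulk, 1 library per region from each of the 12 mice. The wt littermates have 2 copies of each gene and carry no minichromosome, and no mouse received a treatment. The trisomy is in all cells of the body from conception, and it covers many genes beside these 7.

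Total counts per library ranged from 23128589 to 40476492. Summed over 9 marker genes of the hippocampus, levels were 1420.5 to 1801 CPM (counts scaled to library size within a region) in HIP libraries and 686 to 816 CPM in EC libraries. Prox1 had wt means of 149.5 CPM (HIP) and 12.7 CPM (EC) and Fibcd1 of 159.6 and 13.5 CPM, whereas Wfs1 (170.4 and 206.9 CPM) and Spock1 (251.4 and 371.8 CPM) were lower in the HIP. Of the cortical markers, Lamp5 had wt means of 56.4 CPM (HIP) and 266.8 CPM (EC) and Cux2 of 22.0 and 90.7 CPM, and Fezf2 was alike in both (22.4 and 23.0 CPM). One mouse stood apart. Both libraries labelled Ts65Dn replicate 3 had a median ratio to the wt mean of 1.01 over the triplicated protein-coding Mmu16 genes other than these 6. The label was kept, and the genotype folds of the 7 genes are given with and without this library. This mouse was picked out by the level of its triplicated genes, so leaving it out favours a gap between the groups for such genes. Values of other genes are from all mice unless stated.

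Chromatin packs DNA around histones, and the proteins described here act at successive steps of that packing. HMGN1 is a small protein that binds nucleosomes and loosens their folding, in competition with linker histone H1. BRWD1 and MORC3 read histone marks, the first through bromodomains that bind acetylated lysine and the second through a zinc finger that binds methylated lysine 4 of histone H3. CHAF1B is a subunit of chromatin assembly factor 1, which places new histones behind the replication fork, and DONSON acts at the fork itself. SETD4 has the SET domain typical of lysine methyltransferases. ARID1B is a DNA-binding subunit of the BAF complex, an ATP-driven remodeler with important roles in neurons, and loss of 1 copy of ARID1B in humans causes Coffin-Siris syndrome.

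Along Mmu16 (GRCm38), the genes lie in 3 places. Donson is at chr16:91676808-91688770 on the minus strand. Setd4 (chr16:93583457-93604063, minus strand), Morc3 (chr16:93832121-93876073, plus strand) and Chaf1b (chr16:93883901-93906115, plus strand) lie close together, with no tested protein-coding gene between Morc3 and Chaf1b. Brwd1 (chr16:95992092-96082526) and Hmgn1 (chr16:96120618-96127729) are direct neighbours, both on the minus strand. Arid1b spans 353325 bases at chr17:4994332-5347656 on the plus strand.

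The 250 bases before the RefSeq start of each gene were read from RefSeq promoter sequences on GRCm38.p6, which held all 7 genes, to show what the genes have in common upstream. The ETS core CCGGAAG, on either strand, was present in the windows of Chaf1b, Setd4 and Donson, 3 of the 7, and in 6.91% of 32851 such mouse windows. The core itself holds a CpG dinucleotide, and all 7 windows lay above the upper quartile of CpG dinucleotides, so 6.91% is not a share over windows like these. These 3 were also the members with the lowest levels, but a link between core and level was not tested. The windows are given 5′ to 3′ on the strand of the gene, with the ETS core in capitals, from chr16:93883651-93883900, chr16:93603816-93604065 and chr16:91688729-91688978 in that order. The core starts 136, 145 and 171 bases before the RefSeq start, and in Setd4 it is on the opposite strand.
Chaf1b: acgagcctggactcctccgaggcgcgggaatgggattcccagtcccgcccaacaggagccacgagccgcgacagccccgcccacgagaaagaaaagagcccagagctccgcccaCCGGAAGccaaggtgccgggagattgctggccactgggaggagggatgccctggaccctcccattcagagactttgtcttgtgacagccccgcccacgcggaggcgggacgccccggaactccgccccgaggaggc
Setd4: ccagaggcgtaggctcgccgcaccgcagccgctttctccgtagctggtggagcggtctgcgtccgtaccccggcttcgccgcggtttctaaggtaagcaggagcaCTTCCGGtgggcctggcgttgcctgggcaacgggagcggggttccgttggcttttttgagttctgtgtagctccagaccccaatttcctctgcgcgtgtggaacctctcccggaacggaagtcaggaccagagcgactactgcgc
Donson: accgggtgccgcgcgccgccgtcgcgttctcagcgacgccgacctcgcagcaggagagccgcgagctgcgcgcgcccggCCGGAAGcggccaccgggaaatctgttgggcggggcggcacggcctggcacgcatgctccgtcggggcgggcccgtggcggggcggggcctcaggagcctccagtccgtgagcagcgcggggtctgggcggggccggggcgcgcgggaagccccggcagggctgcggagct

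None of the 7 windows held an E2F core (TTTCCCGC, TTTCGCGC, TTTGCCGC or TTTGGCGC on either strand, 1.86% of all windows) or the CRE palindrome TGACGTCA (1.55%), and CCAAT was present in those of Hmgn1, Morc3 and Setd4 (33.9% of all windows). The windows held 17 (Morc3) to 42 (Brwd1) CpG dinucleotides, against a median of 6 and an upper quartile of 16 over all windows. The RefSeq starts used for the windows differ from the ends of the gene coordinates given above. By those coordinates, the window of Arid1b and nearly all of that of Setd4, ETS core included, lie inside the gene, and those of Brwd1, Donson and, by a few bases, Hmgn1 reach into it.

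In wt mice, levels per kilobase of exon (RPKM) covered a wide range. In the HIP, Arid1b was highest with 9.29 ± 0.524 RPKM (SD, n = 6), followed by Hmgn1 with 6.83 ± 0.458, Brwd1 with 5.47 ± 0.344, Morc3 with 5.04 ± 0.253 and Donson with 3.06 ± 0.321. Setd4 was at 0.574 ± 0.093 RPKM and Chaf1b at 0.0544 ± 0.0217 RPKM. The ranges of Brwd1 and Morc3 overlapped, and those of all other neighbours in this order did not. In the EC, Arid1b was again highest (6.88 ± 0.339 RPKM), and Brwd1 (5.18 ± 0.215), Hmgn1 (4.92 ± 0.353) and Morc3 (4.90 ± 0.219) formed a group whose neighbours overlapped. Donson (2.26 ± 0.242), Setd4 (0.387 ± 0.0779) and Chaf1b (0.110 ± 0.0426) followed in the same order as in the HIP. So the remodeler subunit was the most expressed of the 7 per kilobase, and the replication-coupled chaperone subunit the least.

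**Figure D1:**
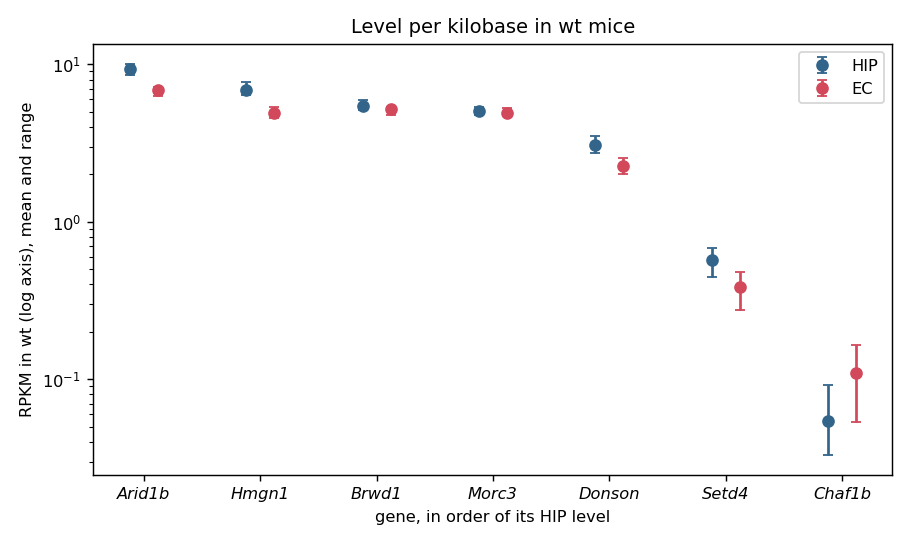
Levels of the 7 genes in wt mice, as RPKM on a log axis, with the mean as a point and the lowest and highest of 6 libraries as bars, in the HIP (blue) and EC (red). Arid1b is highest in both regions, and Chaf1b is lowest, at 0.0544 RPKM (HIP) and 0.110 RPKM (EC).

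Members differed between the regions of the same wt mice. In a joint fit with a term for each mouse, Hmgn1 was higher in the HIP than in the EC by 1.31-fold (log2 ratio 0.39, SE 0.06, edgeR adjusted p = 0.0003), Arid1b by 1.27-fold (0.35, SE 0.05, adjusted p = 9.29e-05), Donson by 1.27-fold (0.35, SE 0.07, adjusted p = 0.00142) and Setd4 by 1.41-fold (0.49, SE 0.15, adjusted p = 0.017). By CPM scaled within each region, each was higher in the HIP in 6 of 6 wt mice. By that count Brwd1 was higher in 5 and Morc3 in 4, though their ratios in the joint fit were below 1. The count is therefore no separate support for the fit. The call of Setd4 was lost without wt replicate 2 (edgeR adjusted p = 0.0525) or wt replicate 3 (adjusted p = 0.0574). Brwd1 and Morc3, the readers of histone marks, had ratios of 0.993 (log2 interval -0.09 to 0.07) and 0.968 (-0.15 to 0.05), and neither was called. Of 17196 genes tested, 31.0% were called higher in the HIP, so 4 called of 6 tested members stands beside a large background. Chaf1b had too few counts to be tested there. CPM were scaled within each region, so levels of the members in the 2 regions are tested only through this joint fit.

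Hmgn1, the nucleosome-binding member, rose in both regions of Ts65Dn mice. In the HIP, wt libraries had 20.5 to 24.7 CPM (median 21.9), and Ts65Dn libraries had 23.0 to 34.1 CPM (median 30.2). The lowest of these was the library labelled Ts65Dn replicate 3, and the other 5, from 29.1 CPM upward, lay above every wt library. The fold was 1.36 (95% interval 1.20 to 1.55, edgeR adjusted p = 0.0269), and 1.43 (1.30 to 1.57, adjusted p = 0.000625) without that library. In the EC, wt libraries had 14.7 to 17.3 CPM (median 15.6), the library labelled Ts65Dn replicate 3 had 14.4 CPM and the other 5 Ts65Dn libraries kept to the narrow range of 22.0 to 23.1 CPM. The fold there was 1.34 (1.15 to 1.56, adjusted p = 0.0455), and 1.42 (1.30 to 1.55, adjusted p = 0.000367) without that library. Of the 50-base windows of the Hmgn1 transcripts, 4.33% also occur in transcripts of 5 other genes, named as predicted genes, so a small share of its reads could be split.

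Brwd1, the bromodomain member next to Hmgn1 on the chromosome, also rose in both regions. In the HIP, wt libraries had 103.6 to 119.9 CPM (median 108.4) and Ts65Dn libraries 111.3 to 169.6 CPM (median 161.2). Without the library labelled Ts65Dn replicate 3, the lowest of the group, the Ts65Dn range was 143.7 to 169.6 CPM and no longer overlapped with wt. The fold was 1.38 (1.21 to 1.57, edgeR adjusted p = 0.0282) with that library and 1.45 (1.34 to 1.58, adjusted p = 0.000131) without it. In the EC, wt libraries had 97.0 to 109.1 CPM (median 106.3), the library labelled Ts65Dn replicate 3 had 97.5 CPM and the other 5 had 141.6 to 167.4 CPM. The gap between the groups was again clear once that library was left out. The fold was 1.37 (1.19 to 1.59, adjusted p = 0.0270), and 1.46 (1.36 to 1.57, adjusted p = 4.11e-05) without it.

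Morc3, the second reader of histone marks and an ATPase of nuclear PML bodies, had the smallest fold of the 7 in the HIP. There, wt libraries had 26.0 to 29.2 CPM (median 27.1) and Ts65Dn libraries 25.3 to 40.5 CPM (median 35.6). The library labelled Ts65Dn replicate 3 was below every wt library, and the other 5 Ts65Dn libraries started at 34.8 CPM. The fold was 1.29 (1.12 to 1.49), which did not pass the test over all genes (edgeR adjusted p = 0.0862), and 1.36 (1.25 to 1.49, adjusted p = 0.000977) without that library. In the EC, wt libraries had 25.4 to 28.6 CPM (median 26.4), the library labelled Ts65Dn replicate 3 had 22.8 CPM and the other 5 had 33.5 to 39.1 CPM. Again the call depended on that library, with a fold of 1.27 (1.09 to 1.48, adjusted p = 0.0831) with it and 1.36 (1.25 to 1.47, adjusted p = 0.000681) without it.

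Chaf1b, the histone chaperone subunit, had only 4 to 43 counts per library, so its values are imprecise. In the HIP, the wt libraries 1 to 6 had 4, 9, 4, 8, 14 and 8 counts (0.154 to 0.431 CPM, median 0.249) and the Ts65Dn libraries 12, 13, 15, 13, 10 and 25 counts (0.375 to 0.851 CPM, median 0.484). The groups overlapped, and the library labelled Ts65Dn replicate 3, with 0.537 CPM, lay above every wt library, unlike its place for the other members in this region. Of the wt HIP libraries 1 had at least 10 counts, against 6 of the Ts65Dn HIP libraries, so the gene entered the test through the group in which it was high and its fold of 2.03 (1.31 to 3.14, edgeR adjusted p = 0.123) is given as a description, as is that of 2.02 without that library. In the EC, the wt libraries had 9, 21, 21, 14, 7 and 19 counts and the Ts65Dn libraries 43, 18, 13, 14, 17 and 17. The Ts65Dn range of 0.450 to 1.13 CPM held most of the wt range of 0.251 to 0.772 CPM, and the fold was 1.25 (0.799 to 1.95, adjusted p = 0.617), or 1.32 (0.829 to 2.10, adjusted p = 0.529) without the library labelled Ts65Dn replicate 3. Without Ts65Dn replicate 1, which had the 43 counts, it was 1.04.

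Donson, the replication fork member, was called in the HIP and not in the EC, where its fold was larger and its scatter wider. In the HIP, wt libraries had 8.50 to 11 CPM (median 9.28) and Ts65Dn libraries 10.6 to 13.6 CPM (median 13.3). The library labelled Ts65Dn replicate 3 was the 1 Ts65Dn library within the wt range. The fold was 1.33 (1.17 to 1.51, edgeR adjusted p = 0.0367), and 1.38 (1.23 to 1.55, adjusted p = 0.00875) without it. The call with all mice was lost with no filter on low counts (edgeR adjusted p = 0.0538). In the EC, wt libraries had 6.28 to 7.98 CPM (median 6.99), the library labelled Ts65Dn replicate 3 had 5.30 CPM, the lowest of all 12, and the other 5 had 10.1 to 12.0 CPM. The fold was 1.44 (1.13 to 1.82, adjusted p = 0.0950), and 1.57 (1.38 to 1.79, adjusted p = 0.00121) without it. Donson shares 103 exon bases (3.29% of its exon length) with Son on the opposite strand, and Son is far more abundant, with a mean of 10017 counts per library. It shares a further 287 exon bases (9.17%) on its own strand with the gene ENSMUSG00000116933, named Atp5o, which is listed at 0 counts in all 24 libraries. The strand setting of the counting is not given in the sources used here, and reads in these stretches cannot be assigned with certainty.

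Setd4, the SET-domain member, did not pass the test with all mice in either region. In the HIP, wt libraries had 2.38 to 3.65 CPM (median 3.14) and Ts65Dn libraries 3.26 to 4.90 CPM (median 4.57). Without the library labelled Ts65Dn replicate 3, the Ts65Dn range was 3.89 to 4.90 CPM and the groups no longer overlapped. The fold was 1.40 (1.15 to 1.71, edgeR adjusted p = 0.109) with it and 1.47 (1.22 to 1.78, adjusted p = 0.0442) without it. In the EC the Ts65Dn libraries were more scattered than for the other members except Chaf1b, from 1.66 to 4.62 CPM (median 3.25), and wt libraries had 1.49 to 2.56 CPM (median 2.10). Here a second Ts65Dn library, replicate 4 with 2.28 CPM, also lay in the wt range. The fold of 1.53 (1.10 to 2.12, adjusted p = 0.148) became 1.67 (1.27 to 2.21, adjusted p = 0.0517) without the library labelled Ts65Dn replicate 3.

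Arid1b, the BAF subunit on Mmu17, rose in both regions and was the member with the steadiest call in the EC. In the HIP, wt libraries had 107.6 to 127.2 CPM (median 117.8) and Ts65Dn libraries 108.7 to 186.0 CPM (median 172.8). The library labelled Ts65Dn replicate 3 was the 1 Ts65Dn library in the wt range, and the other 5, from 171.3 to 186.0 CPM, lay well above it. The fold was 1.40 (1.21 to 1.64, edgeR adjusted p = 0.0372), and 1.5 (1.40 to 1.60, adjusted p = 9.51e-06) without it. In the EC, wt libraries had 79.5 to 89.9 CPM (median 88.8), and Ts65Dn libraries had 96.3 to 131.0 CPM (median 125.0). Every Ts65Dn library was above every wt library, the one labelled Ts65Dn replicate 3 included, which was true of no other member. The share of all EC genes set apart in this way was taken only without that library, where it was 2.21%. The fold was 1.39 (1.26 to 1.54, adjusted p = 0.00519), and 1.45 (1.35 to 1.56, adjusted p = 4.38e-05) without that library.

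**Figure D2:**
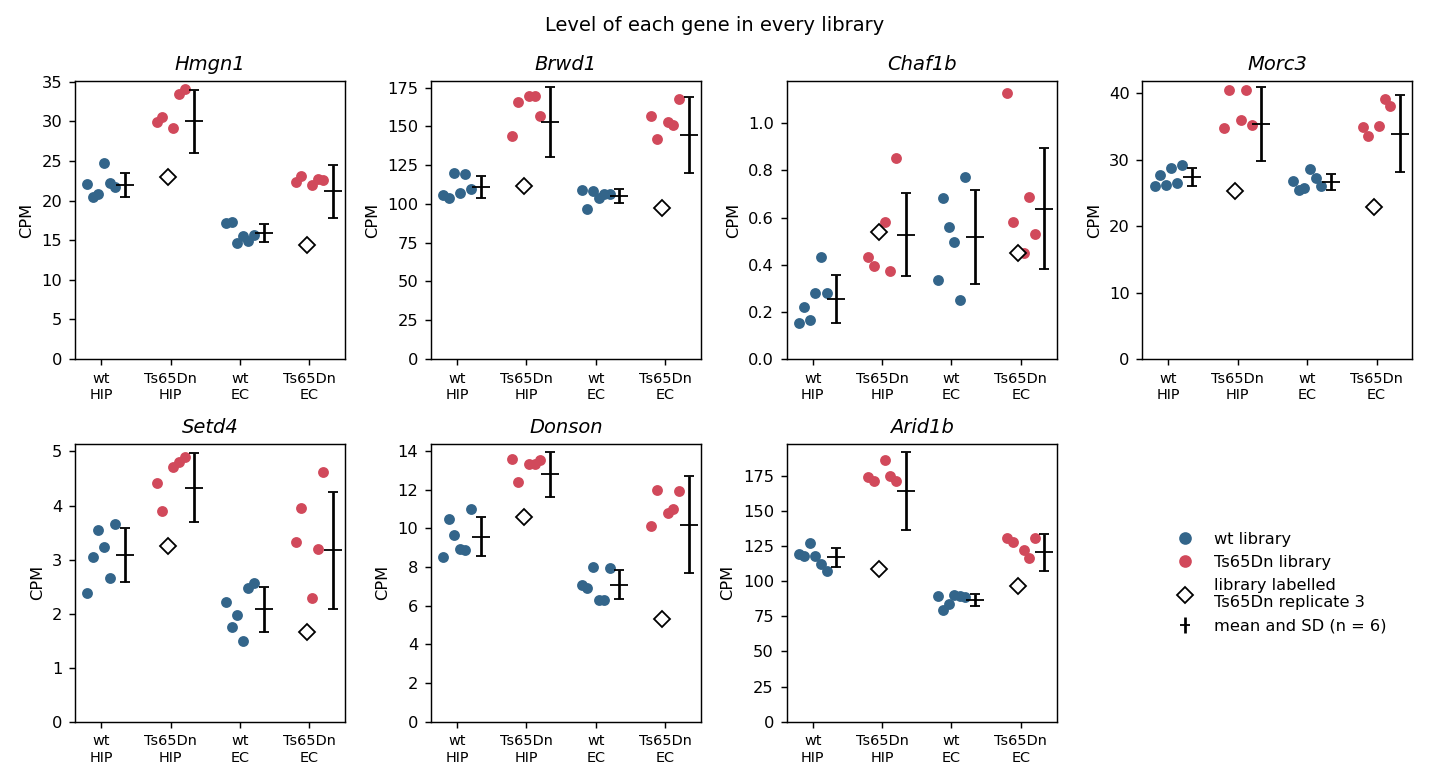
CPM of each gene in all 24 libraries, 1 panel per gene with axes from 0, for wt (blue) and Ts65Dn (red) mice in the HIP and EC; bars are the mean and SD of 6 libraries, and the open diamond is the library labelled Ts65Dn replicate 3. For Hmgn1 in the EC, that library is at 14.4 CPM and the other 5 Ts65Dn libraries are between 22.0 and 23.1 CPM.

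With all mice, Hmgn1, Brwd1, Donson and Arid1b, 4 of the 7 genes, were called higher in the HIP. The EC calls were 3 of these, without Donson. By edgeR, 0 members were called lower. All 7 folds were above 1 in both regions, as were those of 8905 of 17355 HIP genes and 8741 of 17049 EC genes. The 7 include Chaf1b, which entered the HIP test through the group in which it was high. The share of all tested genes called higher was 0.542% (HIP) and 1.15% (EC). DESeq2 called 6 (HIP) and 5 (EC) members higher, but it called more genes of all kinds. Its calls in either direction were 575 (HIP) and 1078 (EC), against 181 and 426 by edgeR. Without the library labelled Ts65Dn replicate 3, edgeR called 6 in the HIP (all but Chaf1b) and 5 in the EC (all but Chaf1b and Setd4), against 1.06% and 1.42% of all genes. In that set, every Ts65Dn library was above every wt library for the same 6 and 5 genes, which held for 1.94% (HIP) and 2.21% (EC) of all tested genes. The library left out was singled out by its triplicated genes, so this separation and the lower p-values partly follow from that choice. Leaving out any 1 of the other 11 libraries instead lowered the HIP count to between 0 and 2. It was 0 without wt replicates 2, 3 or 5 or without Ts65Dn replicates 4 or 6, and with all mice the adjusted p-values of the 4 called genes lay between 0.0269 and 0.0372. In the EC, Arid1b was called in all 12 such fits, and the count was 1 without wt replicates 1, 3, 4 or 5 or without Ts65Dn replicates 1, 2 or 4.

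The library labelled Ts65Dn replicate 3 was set against the others by the median over the 7 genes of the ratio to the wt mean. This median was 1.42 to 1.53 in the other 5 Ts65Dn HIP libraries, 0.950 to 1.07 in the wt HIP libraries and 1.04 in that library. In the EC it was 1.39 to 1.51, 0.955 to 1.03 and 0.873 respectively. Thus 10 of the 12 Ts65Dn libraries lay above every wt library of their region, and the other 2 came from 1 mouse. Over the other triplicated protein-coding genes the picture was the same, with medians of 1.43 to 1.54 (73 Mmu16 genes) and 1.37 to 1.51 (28 Mmu17 genes) in the 5 HIP libraries.

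**Figure D3:**
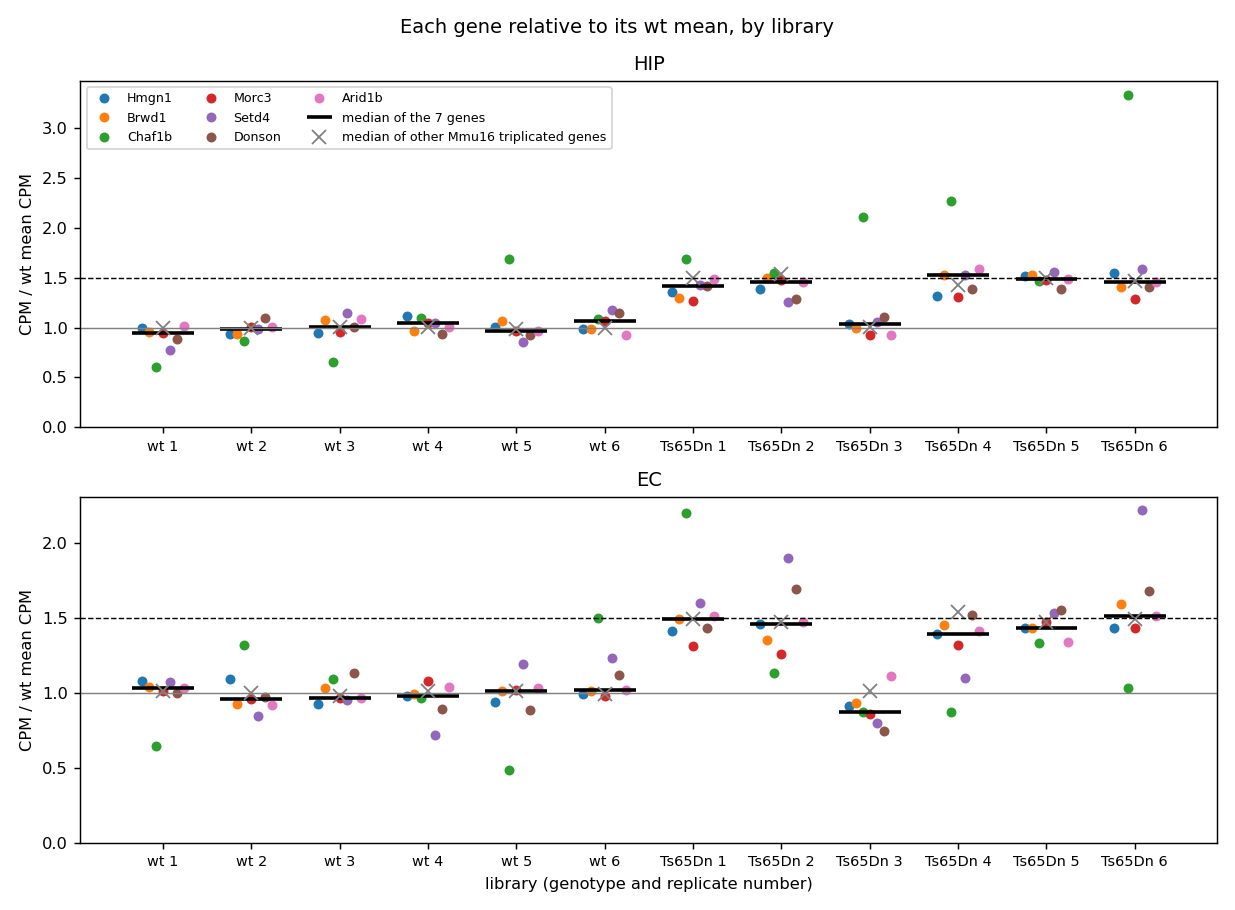
Ratio of CPM to the wt mean for each of the 7 genes (coloured points) in each library of the HIP (top) and EC (bottom), with the median of the 7 as a black bar, the median of the other triplicated Mmu16 genes as a grey cross, and lines at 1 and 1.5. The bars of 5 Ts65Dn libraries lie between 1.39 and 1.53, and that of Ts65Dn 3 is at 1.04 (HIP) and 0.873 (EC); the high green points are Chaf1b, which had few counts.

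A ratio of 3 copies to 2 predicts a fold of 1.5 where RNA follows gene dose, and each fold was tested against that value. Chaf1b is left out here because of its few counts. With all mice, the median fold of the other 6 genes was 1.37 in the HIP (range 1.29 to 1.40) and 1.38 in the EC (1.27 to 1.53). The 95% interval contained 1.5 for 5 of these 6 genes in each region. The exception was Morc3, which was below 1.5 in the HIP (edgeR adjusted p = 0.0453) and in the EC (adjusted p = 0.0418). Adjustment over all genes is lenient here, since this test put 83.3% of HIP genes and 84.7% of EC genes below 1.5. Without the library labelled Ts65Dn replicate 3, the median fold was 1.44 (HIP) and 1.46 (EC). Morc3 remained the one of the 6 below 1.5, with edgeR adjusted p = 0.0437 (HIP) and adjusted p = 0.0262 (EC). Of the other Mmu16 genes, 5 of 74 (HIP) and 4 of 72 (EC) were then below 1.5, and of the 28 Mmu17 genes 4 and 5. In the HIP, Arid1b then had a fold of 1.5 (edgeR adjusted p = 0.999 against 1.5). The call of Morc3 was not steady. It was lost in the HIP when any of wt replicates 2, 3, 4, 5 or 6 or Ts65Dn replicates 1, 4 or 6 was left out, and in the EC without wt replicates 1, 4, 5 or 6 or Ts65Dn replicates 1, 2 or 4. Without wt replicate 1, Donson was below 1.5 in the HIP as well. None of the 6 was called above 1.5, and the interval was widest for Setd4, the one with the fewest counts.

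**Figure D4:**
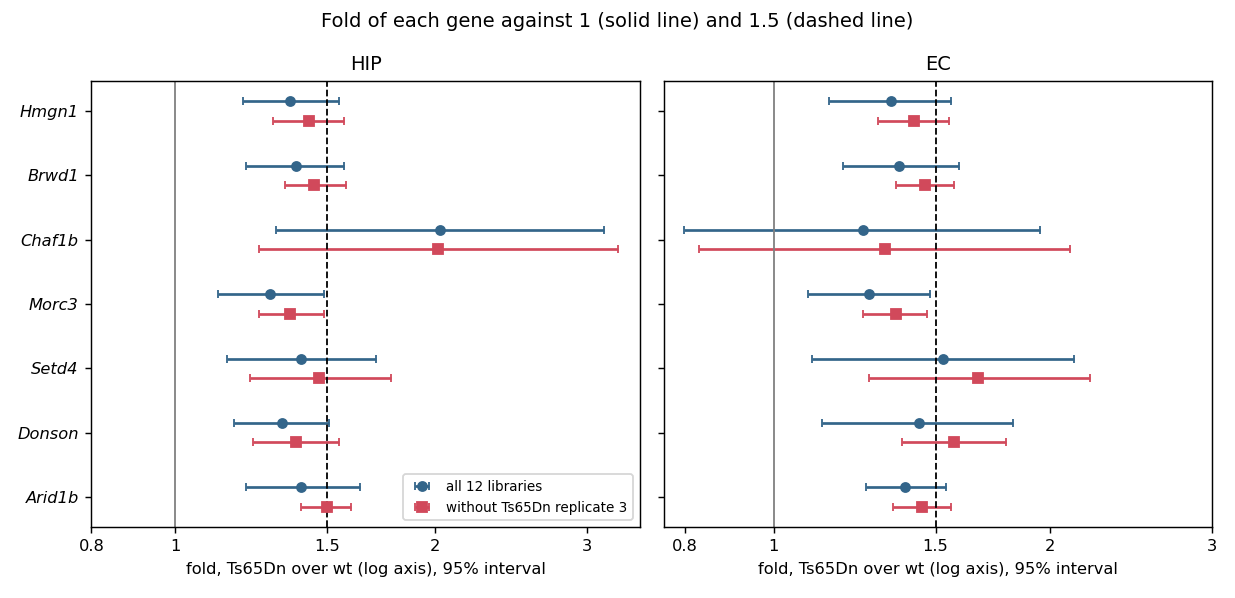
Fold of each gene, Ts65Dn over wt on a log axis, with 95% intervals, from all 12 libraries of a region (blue circles) and without Ts65Dn replicate 3 (red squares), beside lines at 1 (solid) and 1.5 (dashed). With all libraries, the intervals of Morc3 end at 1.49 (HIP) and 1.48 (EC), and those of the other 6 genes cross 1.5.

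The folds of the members were set beside those of the other triplicated genes. When the library labelled Ts65Dn replicate 3 was left out, the other 74 tested Mmu16 protein-coding genes had a median fold of 1.49 in the HIP (quartiles 1.40 and 1.59), and the other 72 had 1.48 in the EC (1.42 and 1.55). Within the segment, Morc3 had a higher fold than 14 of 80 HIP genes and 10 of 78 EC genes, whereas Brwd1 was higher than 33 in each. Hmgn1 was higher than 25 (HIP) and 21 (EC) genes. Setd4 and Donson were higher than 68 and 60 of the 78 EC genes and than 38 and 16 of the 80 HIP genes. In the HIP, these 5 members all lay below the middle of the segment's order, and in the EC 3 lay below it and Setd4 and Donson above it. On Mmu17, Arid1b was higher than 15 of 29 HIP genes and 11 of 29 EC genes. The nearest tested genes showed folds on either side of those of the members. Wrb, next to Hmgn1, had folds of 1.57 and 1.56 (HIP and EC) without that library, and Psmg1, next to Brwd1, had 1.59 and 1.53. Dop1b, on the other side of Morc3 from Chaf1b, had 1.60 in the HIP and 1.48 in the EC, both above the 1.36 of Morc3. Son, an RNA-binding splicing cofactor beside Donson, had 1.31 and 1.23. Cbr1 next to Setd4 had 1.52 and 1.54, and Runx1 on its other side, a blood lineage factor, had 1.17 (edgeR adjusted p = 0.614) and 1.20 (adjusted p = 0.537). Hlcs, Cryzl1, Tfb1m and Tmem242 completed the set, with HIP folds from 1.38 (Tmem242) to 1.62 (Tfb1m) and EC folds from 1.39 (Cryzl1) to 1.63 (Hlcs).

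An interaction of genotype and region, fitted with a term for each mouse, asked whether the trisomy acted on a member to a different degree in the HIP than in the EC. None of the 7 was called (edgeR adjusted p = 1.0 for each). For Hmgn1, Brwd1, Morc3 and Arid1b, the log2 effect differed between regions by 0.03 (95% interval -0.15 to 0.21), 0.00 (-0.14 to 0.15), 0.02 (-0.13 to 0.17) and -0.01 (-0.18 to 0.16). Donson (-0.08, -0.37 to 0.20), Setd4 (-0.10, -0.58 to 0.39) and Chaf1b (0.72, -0.28 to 1.72) were less well determined. Without the mouse labelled Ts65Dn replicate 3, the differences were between -0.191 (Donson) and 0.049 (Arid1b) for all but Chaf1b (0.634), with 0 members called. Of 18109 genes tested, 0 were called by edgeR, 742 had an unadjusted p under 0.05 and DESeq2 called 0, so a region difference was not detectable for these genes rather than shown to be absent.

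Genes of families and complexes related to the members, none of them triplicated, were taken as 8 lists of 140 genes. They include relatives of the members as well as partners, and the PRC2 list holds no member. In the HIP, 134 were tested and 2 were called, against 1.04% of all genes. In the EC, 133 were tested and 1 was called, against 2.5% of all genes. Without the library labelled Ts65Dn replicate 3, the counts called were again 2 and 1. The median log2 fold change over these genes was -0.04 (HIP) and 0.00 (EC), beside 0.01 in each region over all genes, whereas the median over the 7 triplicated members was 0.46 in each region. The plot by list shows the members to the right of nearly all other genes.

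**Figure D5:**
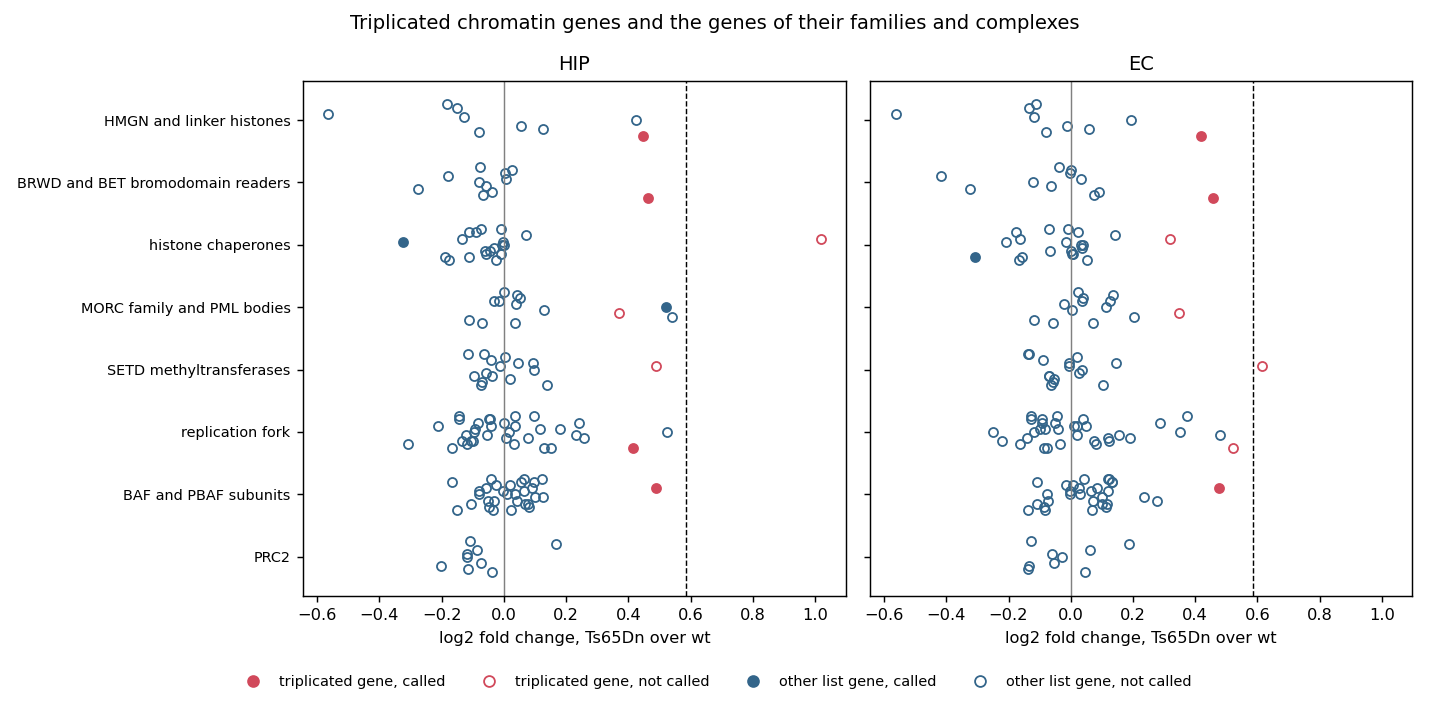
Log2 fold change, Ts65Dn over wt, of every tested gene of the 8 lists in the HIP and EC, with triplicated members in red, other genes in blue, and filled circles for genes with an adjusted p under 0.05; the dashed line is a 1.5-fold change. The blue points centre near 0, and the filled blue ones are Npm1 and Sumo2 in the HIP and Anp32e in the EC.

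Among the HMGN proteins and linker histones, which compete with or resemble HMGN1, 0 of 8 tested genes were called in either region. Hmgn2, the closest relative of Hmgn1, had a mean of 7.20 CPM in the wt HIP and 4.86 CPM in the Ts65Dn HIP (fold 0.675, edgeR adjusted p = 0.256), and its fold was 0.678 in the EC (adjusted p = 0.283). Hmgn5 had folds of 0.881 and 0.925, Hmgn3 of 1.04 and 0.991, and H1f0, a linker histone of resting cells, of 0.915 and 0.921, none of them called. The other 3 of the 11 genes did not pass the filter on low counts. Hmgn2, like Npm1 and Sumo2 below, has processed pseudogenes with which it can share reads.

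Of 10 bromodomain readers related to BRWD1, 0 were called in either region. The 2 closest relatives had values below wt in both regions, Phip with folds of 0.826 (adjusted p = 0.137) in the HIP and 0.799 (adjusted p = 0.0702) in the EC, and Brwd3 with 0.883 (adjusted p = 0.560) and 0.749 (adjusted p = 0.102). Brd1, a scaffold of acetyltransferase complexes, had 0.947 and 0.974. These did not pass the test, and the sum over the 10 genes was 740 to 780 CPM in wt HIP libraries and 710 to 741 CPM in Ts65Dn HIP libraries. In the EC it was 602 to 690 CPM in wt and 604 to 698 CPM in Ts65Dn libraries.

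Within these lists, histone chaperones gave the only called decreases. Npm1, encoding nucleophosmin, a nucleolar chaperone of ribosome assembly, fell in the HIP from 112.9 ± 8.14 to 90.1 ± 2.41 CPM (SD, n = 6; log2 fold change -0.33, SE 0.05, edgeR adjusted p = 0.00779). Its EC fold was 0.865 (adjusted p = 0.0596). Anp32e, a chaperone of the histone variant H2A.Z, fell in the EC from 137.3 ± 7.55 to 111.0 ± 5.77 CPM (log2 fold change -0.31, SE 0.05, adjusted p = 0.00752), and its HIP fold was 0.878 (adjusted p = 0.205). Both calls remained without the library labelled Ts65Dn replicate 3. Of 19 genes, these were the only ones called, 1 per region. Chaf1a and Rbbp4, which form chromatin assembly factor 1 with Chaf1b, had folds of 0.983 and 0.959 (HIP) and 1.04 and 0.954 (EC), and edgeR adjusted p was 0.504 or higher. Nap1l1 had 0.911 and 0.894.

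In the list of the MORC family and PML bodies, 1 of 12 tested genes was called in the HIP and 0 in the EC. Sumo2, a ubiquitin-like modifier abundant in PML bodies, had 2.74 ± 0.240 CPM in the wt HIP and 3.94 ± 0.576 CPM in the Ts65Dn HIP, a fold of 1.44 (edgeR adjusted p = 0.0490). This call was lost without the library labelled Ts65Dn replicate 3 (adjusted p = 0.0640), whereas Sp100, a PML body component, was then called (fold 1.53, adjusted p = 0.0486, against 1.45 and 0.116 with all mice). Sumo3 had folds of 0.926 and 0.921. Morc2a had 0.952 and 0.961 and Morc4 0.999 and 1.02, and neither was called.

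No SETD methyltransferase (15 tested), replication fork gene (33 tested in HIP, 32 in EC), BAF or PBAF subunit (29) or PRC2 gene (9) was called in either region. Setd3, which methylates actin, had folds of 0.923 and 0.911, Setd6 of 1.0 and 1.01, Setd1a of 1.10 and 1.08 and Setd7 of 1.07 and 1.02 (HIP, then EC). At the fork, Mcm2, a subunit of the helicase that unwinds DNA, had 1.03 in each region, and the fork protection gene Tipin had 0.808 (edgeR adjusted p = 0.0939) and 0.841 (adjusted p = 0.115). Orc4 had 0.906 and 0.859 and Dbf4 1.13 and 1.30. Within the BAF complex, Arid1a, the alternative to Arid1b, had 0.976 (adjusted p = 0.775) and 0.944 (adjusted p = 0.376), Arid2 had 0.966 and 0.951, and the ATPases Smarca4 and Smarca2 had 1.05 and 1.09 (HIP) and 1.09 each (EC). Smarce1 had 0.901 and 0.910. The PRC2 genes Mtf2, Phf1 and Aebp2 had folds of 0.870, 1.12 and 0.923 (HIP), and those of Mtf2 and Aebp2 were 0.911 and 0.909 in the EC, where Phf1 had a log2 fold change of 0.19.

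Markers of dividing cells, in which Chaf1b and Donson are known to act, were sparse. Of 15 such genes, 10 (HIP) and 7 (EC) were tested and 0 were called by edgeR. Their summed level was 12.5 to 15 CPM in the wt HIP and 10.5 to 16.4 CPM in the Ts65Dn HIP, and 8.78 to 10.5 and 8.99 to 12.5 CPM in the wt and Ts65Dn EC. Mki67, the standard marker of cycling cells, had means of 2.39 and 2.08 CPM in the wt and Ts65Dn HIP. The 8 markers of immature neurons summed to 94.1 to 169.6 CPM in the wt HIP and 72.7 to 113.4 CPM in the Ts65Dn HIP, with 0 called. In the HIP their median log2 fold change was -0.203 with 1 of 8 above 0. Without the library labelled Ts65Dn replicate 3 it was -0.218 with 0 of 8 above 0. In the EC, with all mice, it was -0.075 with 2 of 5 tested above 0. Summed levels of neurons, astrocytes, oligodendrocytes, microglia and endothelial cells overlapped between genotypes in both regions, and P2ry12 was the only one of these genes called with all mice (log2 fold change -0.27 and -0.45, edgeR adjusted p = 0.0422 and 0.0226). Astrocyte markers in the EC summed to 6505 to 7415 CPM in wt and 5012 to 6739 CPM in Ts65Dn libraries. Their median log2 fold change was -0.175 with 1 of 8 above 0, beside 0.005 over all genes, and without the library labelled Ts65Dn replicate 3 it was -0.226 with 0 of 8 above 0. Slc1a2, a glutamate transporter of astrocytes, was then called in the EC (log2 fold change -0.28, edgeR adjusted p = 0.0409). Choroid plexus markers ranged from 61.6 to 5406 CPM between Ts65Dn HIP libraries and from 102.6 to 5163 CPM between wt HIP libraries. The part of these markers in the levels of the 7 genes was not tested. In bulk tissue, a change in the share of a cell type and a change of RNA per cell cannot be told apart.

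Library by library, the genes most like each member were sought as the highest Pearson r of log2 CPM, as deviations from the mean of each genotype and region, over 24 libraries and 16592 genes. The 24 libraries come from 12 mice. Of the 21 places so filled, 13 were held by other triplicated genes, and Gtf2h5 and App each held 2 of them. Morc3 was closest to Dyrk1a (r = 0.946), Gtf2h5 (0.918) and Mrpl39 (0.911), Brwd1 to Son (0.911), App (0.908) and Kcnj6 (0.905), Arid1b to App (0.916), Scaf8 (0.901) and Dop1b (0.901), and Hmgn1 to Wrb (0.903), N6amt1 (0.859) and Gtf2h5 (0.859). Setd4 was closest to Fgfr1op (0.859), Zfp944 (0.858) and Bbs5 (0.805). Donson, with Slc41a2 (0.872), Lmbr1 (0.871) and Gm49336 (0.852), and Chaf1b, with Lrrc3 (0.698), Tbc1d20 (0.664) and Gm9905 (0.644), had no triplicated gene among their 3. Without the 2 libraries labelled Ts65Dn replicate 3, 1 of the 21 nearest genes was triplicated, Fgfr1op beside Setd4, and the closest were Eif4e to Morc3 (0.845), Ddx4 to Donson (0.827), Gm35549 to Setd4 (0.817), Rasgrp1 to Brwd1 (0.794), Snhg17 to Arid1b (0.773), and Map3k1 to Hmgn1 and Lrrc3 to Chaf1b (0.720 each).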

How the data were processed

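The authors aligned single-end 50-base reads to GRCm38 with Hisat2, using Ensembl release 99, and deposited raw HTSeq-count counts per gene for 55385 genes and 24 libraries, without normalization. Their notes name bcl2fastq 2.17.1.14 and DESeq2. The methods name a total RNA kit and then polyA RNA, and the labels an mRNA kit. Their tables of their own comparisons (fold changes, p-values) were not used. Gene positions came from GENCODE vM21 (99.6% of identifiers matched).

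Groups and mice were taken from the labels. Within each region, genes kept by filterByExpr (17355 in the HIP, 17049 in the EC) were tested with edgeR 4.0.16 (R 4.3.3), TMM scaling, quasi-likelihood test and Benjamini-Hochberg adjusted p under 0.05 over all genes. An offset tested folds against 1.5, and intervals are fold ± t × SE on the log2 scale at 95%. The interaction and the regions were tested with a term for each mouse. RPKM are CPM per kilobase of merged exons. The methods were tested on simulated data.

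The members and lists were chosen with earlier results of these data known. Named were the members, in each list the 3 other genes with the smallest unadjusted p and fixed relatives, the nearest tested protein-coding gene on either side, and the 3 genes nearest in pattern. Of 18 names of HMGN and linker histone genes 12 matched; the others are newer names of listed genes. Alternatives were DESeq2 1.42.0, its size factors, a filter of at least 10 counts in each library, no filter on low counts, a replicate block, and leaving out each mouse. Results without Ts65Dn replicate 3 for patterns, lists and overlaps were chosen after seeing the data.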

Additional observations from a re-analysis of the deposited data

Results flagged for a closer look

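In 6 of the 28 groups of 6 libraries (7 genes, 2 genotypes, 2 regions), 1 library lay apart from the rest by Dixon's criterion (the gap to the next library, over the whole range). Chance gives about 1 such group in 20 where groups are independent. The 7 genes were measured in the same libraries, so 6 of 28 cannot be set against that rate. In the Ts65Dn EC, the library labelled Ts65Dn replicate 3 was lowest for Hmgn1 (14.4 CPM, the others from 22.0), Brwd1 (97.5 CPM, the others from 141.6), Morc3 (22.8 CPM, the others from 33.5) and Donson (5.30 CPM, the others from 10.1). In the Ts65Dn HIP, the same mouse was lowest for Arid1b (108.7 CPM, the others from 171.3). The remaining case was Chaf1b in the Ts65Dn EC, where replicate 1 had 1.13 CPM and the others 0.450 to 0.685 CPM. All 6 were Ts65Dn groups. In all but 1, the library apart came from the mouse labelled Ts65Dn replicate 3, already singled out by its triplicated genes.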

How the results depend on the processing

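Every fold of the 7 members stayed above 1 in both regions under all alternatives, but the calls moved. DESeq2 called 575 genes (HIP) and 1078 (EC), with 5 members in the EC and 7 and 5 list genes. A fit with the replicate block called 29 and 36 genes, with 0 and 1 members (Arid1b) and 1 and 0 list genes. Same-numbered wt and Ts65Dn samples share only a number: their deviations correlated over 0.1 in 3 of 12 pairs (from -0.193 to 0.164), and 0 wt mice in the HIP and 1 in the EC matched their own number best. With no filter on low counts, calls came to 275 in the EC, 1 list gene and 3 members in the HIP (Donson was lost), 37 genes for the interaction and 0 members below 1.5 in each region. DESeq2 size factors gave 1 list gene in the HIP, and at least 10 counts in every library gave 2 in the EC.

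With 1 mouse left out, calls ranged from 54 to 318 (HIP, without Ts65Dn replicates 6 and 3) and from 90 to 685 (EC, without Ts65Dn replicates 1 and 6). Members called ranged from 0 to 6 and from 1 to 5, members below 1.5 from 0 to 2 and from 0 to 1, and list genes from 1 to 2 and from 1 to 3. Interaction effects near 0 changed sign, none of them called: with 1 mouse left out, those of Hmgn1 ranged from -0.017 to 0.071, Brwd1 from -0.025 to 0.046, Morc3 from -0.024 to 0.054, Setd4 from -0.193 to 0.013 and Arid1b from -0.035 to 0.049. Without the replicate block formed by the mouse, Brwd1 was at -0.001 and Arid1b at 0.007, and without a filter Brwd1 was at -0.006. The log2 ratio of HIP to EC of Brwd1 was 0.001 with at least 10 counts and ranged from -0.028 to 0.016 with 1 mouse left out. The cause of these moves was not tested. Depth limits Chaf1b and, less so, Setd4.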
